A study of Mus musculus with 90 samples.

Results

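The oogenesin family genes Oog1, Oog2, Oog3 and Oog4 were taken by symbol from the count table, and all 4 members were found among its 24422 genes. All 4 passed the filter on low counts and were among the 16511 genes tested. The levels were measured in single MII oocytes (mature eggs arrested in the second meiotic division), 2-cell (2c) and 8-cell (8c) mouse embryos of the CD-1 strain. Oocytes and embryos came from superovulated wildtype (WT) females or from females lacking the transcription factor gene Plag1, and all fathers were WT. The embryos of knockout mothers, named matPlag1KO, therefore carry a paternal WT allele, whereas the knockout oocytes carry none. Oocytes were picked 21 to 23 h after the hCG injection, and cultured embryos 45 to 47 h (2c) and 71 to 73 h (8c) after fertilization. The labels do not name the mothers, so embryos of 1 female could not be grouped. The p-values measure the spread between single oocytes or embryos, taken as independent.

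After 12 of 90 libraries with very few detected genes were left out, the comparisons held 16 WT and 14 matPlag1KO oocytes, 11 and 11 2c embryos, and 15 and 11 8c embryos, spread over 2 library pools called plates A and B. Median totals of gene counts ranged from 148473 in WT 2c embryos to 649899 in matPlag1KO oocytes. Plag1 was detected in all 16 WT oocytes and in 3 of the 14 from knockout females, but in 1 of 11 WT 2c embryos and 9 of 11 libraries labelled matPlag1KO at 2c, so the 2c group is called by its label here. The summed level of 9 oocyte markers ranged from 6107 to 35402 CPM (gene counts scaled to a common library total) in WT oocytes and from 31.0 to 578 CPM in WT 8c embryos. The 2-cell markers present in the table (7 of 8) summed to 78.1 to 991 CPM in WT 2c embryos and to at most 11.6 CPM in WT oocytes, with Tcstv1 and Tcstv3 at 0 counts in all groups. The cumulus and granulosa markers stayed between 0 and 106 CPM in every library, with Amh and Foxl2, which define granulosa cells, at 0 counts in both oocyte groups. Of the same list, Cyp19a1, the aromatase gene, had 169 counts in 15 of 16 WT and 153 in 14 of 14 matPlag1KO oocytes, and Fshr, the FSH receptor gene, 47 and 49 counts in 10 libraries each. Amhr2, named after its values were seen, had 0 and 2 counts in WT and matPlag1KO oocytes, but 83 and 86 at 2c and 154 and 66 at 8c. Foxl2 had 6 counts in 2 of 11 libraries labelled matPlag1KO at 2c.

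Oogenesins are leucine-rich repeat proteins of the PRAME family, and their genes are known from the mouse ovary, where they are expressed in oocytes. Oog1 protein is known to bind RalGDS, an exchange factor that activates Ral GTPases. Other members of the PRAME family act as the substrate-binding parts of ubiquitin ligases built on cullin 2 and the elongins. In mouse, the family lies in clusters of near-identical copies, which matters for counting short 5′ reads.

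The genes are alike in structure. In mm9, the build used by the authors, Oog2 lies on chromosome 4 at chr4:143780620-143786837 (plus strand), Oog3 at chr4:143747459-143752554 (minus strand) and Oog4 at chr4:143027067-143040205 (minus strand), while Oog1 lies on chromosome 12. Each has 4 exons in GENCODE and a coding sequence of 1485 to 1509 bases. Between members, the transcripts were identical at 75.2% to 80.6% of aligned bases and the 250 bases before the start at 77.4% to 83.8%. The 140 bases before each gene start are given here because the members share long stretches of letters there. They are from RefSeq promoters on GRCm38.p6, on the strand of the gene, with the runs of 9 or more letters found in all 4 members in capitals.
Oog1, chr12:87602525-87602664 (plus strand): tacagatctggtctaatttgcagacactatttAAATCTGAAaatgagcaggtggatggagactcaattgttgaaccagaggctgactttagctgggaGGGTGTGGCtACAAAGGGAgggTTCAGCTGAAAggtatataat
Oog2, chr4:144190577-144190716 (plus strand): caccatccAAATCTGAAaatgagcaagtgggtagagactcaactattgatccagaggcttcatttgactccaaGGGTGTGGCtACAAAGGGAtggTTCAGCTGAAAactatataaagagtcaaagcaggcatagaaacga
Oog3, chr4:144162652-144162791 (minus strand): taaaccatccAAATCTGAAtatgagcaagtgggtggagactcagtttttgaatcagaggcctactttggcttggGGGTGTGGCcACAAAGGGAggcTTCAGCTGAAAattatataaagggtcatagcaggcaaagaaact
Oog4, chr4:143450325-143450464 (minus strand): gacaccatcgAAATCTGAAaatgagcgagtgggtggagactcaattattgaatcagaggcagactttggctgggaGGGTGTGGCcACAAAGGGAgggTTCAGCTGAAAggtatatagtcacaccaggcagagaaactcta

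The last 3 shared runs stood in the same order and spacing in every member, with 1 base and then 3 bases between them, and the run before them lay 55 bases further upstream in Oog3 and 56 in the others. The longest, TTCAGCTGAAA, occurred in 14 of 32851 RefSeq promoter windows of 250 bases on either strand (0.043%). All 4 runs together were found in 6 promoters, those of the members, of Gm2042 and of Pramel26, which is Gm13084 in the count table. TTCAGCTGAAA holds CAGCTG, one form of the E-box CANNTG to which helix-loop-helix factors such as FIGLA bind. CANNTG occurred in all 4 windows and in 66.217% of all promoters. TATAAA was found in the Oog2 and Oog3 windows (12.368% of all promoters), and the homeobox letters TAATTA or TAATTG in those of Oog3 and Oog4 (11.254%). A simplified form of the PLAG1 consensus, GGGGC or GAGGC followed after 6 to 8 bases by GGG, was in 0 of the 4 windows of 250 bases. It was in 19.896% of all promoters, searched on both strands. The paper scanned a wider region around the start for its de novo PLAG1 motif, which was not searched for here.

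The row named Oog1 has to be described before its values. In the count table it spans 255506 bases, chr12:88943615-89199120, whereas the GENCODE gene Oog1 takes 6158 bases at its start. Inside the span lie 7 other rows, of which BB287469, Gm2016 and Gm2022 are 2-cell genes related to the translation initiation factor gene Eif1a, and Gm2042 is a copy of Oog1 with 99.83% identity. The rows Gm16381, Gm1995, Gm2016, Gm2022 and Gm2042 do not overlap each other, and their summed count was at or below that of the row named Oog1 in 78 of 78 libraries. Their sum came to 25.7% of its counts in WT oocytes, 81.8% in WT 2c embryos and 91.4% in WT 8c embryos. In the matPlag1KO groups it came to 16.8%, 69.9% and 94.6%. Gm16381, with 3854 of the 4887 summed counts in WT 2c embryos, lies on the minus strand, whereas the row named Oog1 lies on the plus strand. Whether counting ignored the strand is not given in the sources used here, so the sum need not lie within the row. With BB287469, which overlaps Gm16381, added, the sum reached or passed the row named Oog1 in 11 of 11 WT and 10 of 11 labelled 2c libraries and in 13 of 15 WT and 8 of 11 matPlag1KO 8c libraries, but in 0 of 16 and 0 of 14 oocyte libraries. At least 101 of 148 counts in WT oocytes and 128 of 161 in matPlag1KO oocytes therefore lay outside these rows, whereas at 2c and 8c no such minimum could be given. The opening 50 bases of the Oog1 transcript occur at 3 places in mm9 (Oog1, Gm2042 and Gm10436), while those of Oog2, Oog3 and Oog4 each occur once. The values of the row named Oog1 are thus given as those of the row, and its part that belongs to Oog1 cannot be told apart.

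**Figure D1:**
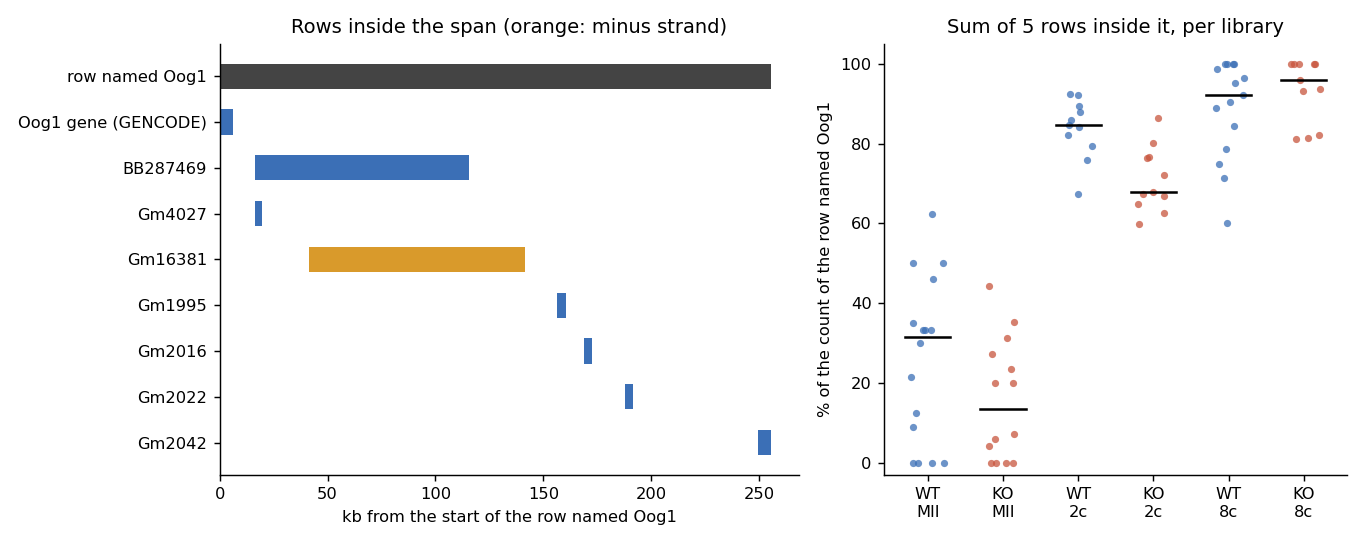
Left, the row named Oog1, the GENCODE gene and the 7 rows inside the span, in kb from the start of the row. Right, the sum of 5 of these rows (Gm16381, Gm1995, Gm2016, Gm2022, Gm2042) as a percent of the count of the row named Oog1, with 1 point a library and a bar at the median: the medians are 31.7% and 13.6% at MII, 84.8% and 67.9% at 2c, and 92.3% and 96.0% at 8c (WT and KO).

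Among the members, Oog3 was by far the most abundant in oocytes and ranked 48 of 16511 tested genes by mean CPM in WT. Reads were taken from 5′ ends, so counts follow the number of transcripts and not their length. In WT oocytes Oog3 had 1182 CPM at the lowest, 2436 at the median and 4147 at the highest. Oog2 had 32.0, 76.9 and 182 CPM, and Oog4 2.60, 50.5 and 533 CPM. The row named Oog1 had 4.90, 20.4 and 44.5 CPM. The ranges of Oog3 and of the other rows did not overlap, whereas Oog2 and Oog4, with means of 88.6 ± 45.4 and 87.0 ± 128 CPM (SD, n = 16), could not be ordered against their spread. In WT 2c embryos Oog3 and the row named Oog1 stood at 3222 ± 1449 and 3091 ± 1484 CPM (SD, n = 11), ranks 21 and 24, while Oog2 stood at 13.5 ± 15.2 CPM and Oog4 at 1.96 ± 3.76 CPM. In WT 8c embryos the row named Oog1 had 54.8 ± 48.8 and Oog3 21.3 ± 13.3 CPM (SD, n = 15). Oog2 and Oog4 were near the limit of detection at 8c, with 3 and 4 counts in 15 WT embryos and 2 counts and 1 count in 11 matPlag1KO embryos.

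**Figure D2:**
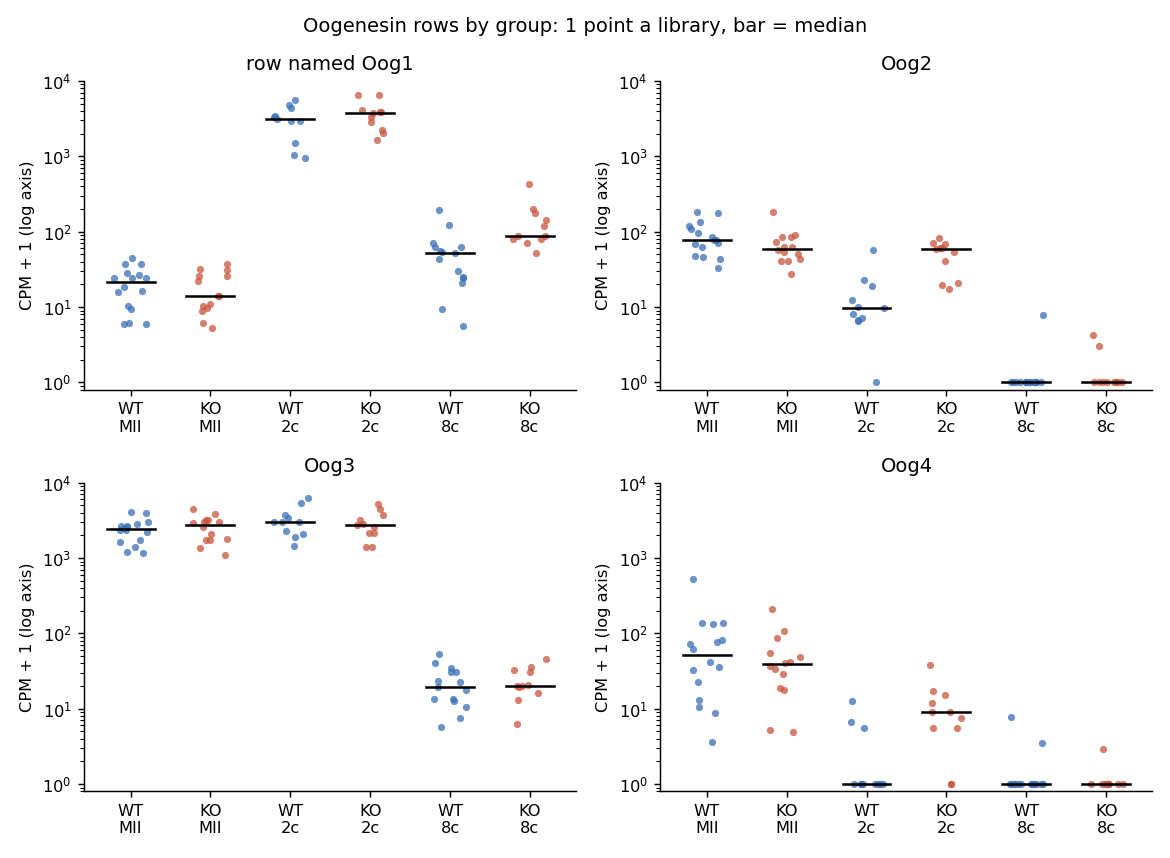
CPM + 1 of each member by group on a log axis, with 1 point for each of 78 libraries (WT blue, matPlag1KO red) and a bar at the median. Oog3 keeps WT medians of 2436 and 2996 CPM at MII and 2c and falls to a WT median of 18.2 CPM at 8c, Oog2 and Oog4 are highest in oocytes, and the row named Oog1 peaks at 2c with WT and KO medians of 3089 and 3786 CPM.

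To follow each member between stages, libraries were scaled to their ERCC spike-in counts, which do not depend on the RNA content of the embryo. On this scale the median over all genes moved from MII to 2c by log2 fold changes of -1.46 in WT and -1.42 in matPlag1KO, and 51.3% and 50.3% of tested genes were called lower (edgeR quasi-likelihood test, Benjamini-Hochberg adjusted). With TMM scaling the balance of all genes turned, with 3814 lower and 4540 higher of 16511 in WT and 3192 and 4799 in matPlag1KO. Oog2, Oog3 and Oog4 were among the lower genes in both genotypes. Oog2 dropped from 4.91 ± 4.04 (SD, n = 16) to 0.264 ± 0.274 (SD, n = 11) counts per 1000 spike-in counts in WT, a log2 fold change of -4.19 ± 0.50 (SE, adjusted p = 9.62e-12 in edgeR). Oog4 fell further, from 4.73 ± 5.38 to 0.0375 ± 0.0692 counts per 1000 spike-in counts, a log2 fold change of -6.56 ± 0.77 (SE, adjusted p = 7.14e-12 in edgeR). In WT 2c embryos 8 of 11 libraries had no Oog4 count, whereas all 16 WT oocytes had at least 1.

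Oog3 changed by a smaller amount. It went from 126 ± 64.6 to 62.7 ± 30.7 counts per 1000 spike-in counts in WT, a log2 fold change of -1.01 ± 0.30 (SE, adjusted p = 0.00282 in edgeR), and from 183 ± 75.8 to 64.2 ± 34.4 in matPlag1KO, -1.51 ± 0.32 (SE, adjusted p = 2.73e-05). These changes lie near the median of all genes. The share of Oog3 in the gene counts did not fall, with 2401 ± 862 CPM in WT oocytes and 3222 ± 1449 CPM in WT 2c embryos, and with TMM scaling the log2 fold changes were 0.42 (adjusted p = 0.151) and 0.17 (adjusted p = 0.626). In the spike-in fit of each plate alone the WT value missed the threshold, at -1.23 (adjusted p = 0.0508) in plate A and -0.80 (adjusted p = 0.0529) in plate B. Oog2 and Oog4 in matPlag1KO changed by -2.18 ± 0.44 (SE, adjusted p = 1.26e-05) and -3.83 ± 0.63 (SE, adjusted p = 2.04e-07). For Oog2 this value was -0.44 (adjusted p = 0.309) with TMM scaling and -1.23 (adjusted p = 0.0550) in plate B alone.

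The row named Oog1 went the other way, as did 14.1% of genes in WT and 13.5% in matPlag1KO. It rose from 0.928 ± 0.470 to 57.8 ± 24.9 counts per 1000 spike-in counts in WT (log2 fold change 5.94 ± 0.39 SE, adjusted p = 5.28e-24 in edgeR) and by 6.08 ± 0.41 (SE) in matPlag1KO. Of the 7 rows inside its span, 5 rose as well in WT (Gm16381, BB287469, Gm1995, Gm2016 and Gm2022), while Gm4027 had 1 and 4 counts (adjusted p = 0.0887) and Gm2042 fell (-2.09 ± 0.79 SE, adjusted p = 0.0166). Gm16381 had 18 counts in WT oocytes and 3854 in WT 2c embryos, Gm2016 had 4 and 640, and Gm2022 had 0 and 149. Gm2042, the near-identical Oog1 copy, had 13 counts in WT oocytes and 1 in WT 2c embryos. Gm10436, another copy with 99.12% identity that lies outside the span, fell from 55.6 ± 22.8 to 32.9 ± 19.8 CPM (log2 fold change on the spike-in scale -2.13 ± 0.40 SE, adjusted p = 4.01e-06).

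From 2c to 8c, 16.2% of genes were lower in WT and 19.5% in matPlag1KO, while 31.9% and 29.1% were higher. With TMM scaling this balance turned too, with 4767 lower and 3475 higher in WT and 5008 and 3501 in matPlag1KO, while the members kept their directions. Oog3 fell over this interval, to 0.789 ± 0.492 (SD, n = 15) counts per 1000 spike-in counts in WT and 0.800 ± 0.363 (SD, n = 11) in matPlag1KO. Its log2 fold changes were -6.29 ± 0.36 and -6.31 ± 0.41 (SE, adjusted p = 8.84e-28 and 1.56e-23 in edgeR). The row named Oog1 changed by -4.93 ± 0.38 in WT and -3.98 ± 0.41 in matPlag1KO, and Oog2 by -3.20 ± 0.59 and -5.14 ± 0.65 (SE). Oog4 was called lower in matPlag1KO (-3.56 ± 0.92 SE, adjusted p = 0.000817) but not in WT, where it held 4 counts at each of the stages. These sizes rest on few 8c counts: by pooled counts over spike-in totals, Oog2 at 8c was at 0.0698 times its 2c level in WT (95% counting interval 0.0135 to 0.228) and 0.0173 times in matPlag1KO (0.00207 to 0.0640). Oog4 was at 0.605 times (0.113 to 3.25) and 0.0378 times (0.000924 to 0.230). Within plate A alone, the changes of Oog2 in WT (-1.73, adjusted p = 0.155) and of Oog4 in matPlag1KO (-2.54, adjusted p = 0.0816) missed the threshold.

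Between MII and 8c, 43.6% of genes in WT and 45.2% in matPlag1KO were lower, and 27.1% and 24.1% higher. With TMM scaling 5996 were lower and 5949 higher in WT, and 5617 and 5708 in matPlag1KO. Oog2, Oog3 and Oog4 were lower in both genotypes, by fitted log2 fold changes of -7.06 to -7.82, of which those of Oog2 and Oog4 rest on 1 to 4 counts a group at 8c. By pooled counts over spike-in totals, Oog2 at 8c was at 0.00336 times its MII level in WT (95% counting interval 0.000692 to 0.00986), and Oog4 at 0.00448 times (0.00122 to 0.0115). The row named Oog1 was higher, by 1.01 ± 0.33 (SE, adjusted p = 0.00444) in WT and 2.10 ± 0.36 (SE, adjusted p = 3.76e-07) in matPlag1KO. This direction turned when the 5 rows inside the span were subtracted, to -2.01 (adjusted p = 9.78e-05) and -1.75 (adjusted p = 0.00188). With BB287469 subtracted in place of Gm16381 it did not turn, at 0.43 (adjusted p = 0.359) and 1.67 (adjusted p = 0.000877).

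**Figure D3:**
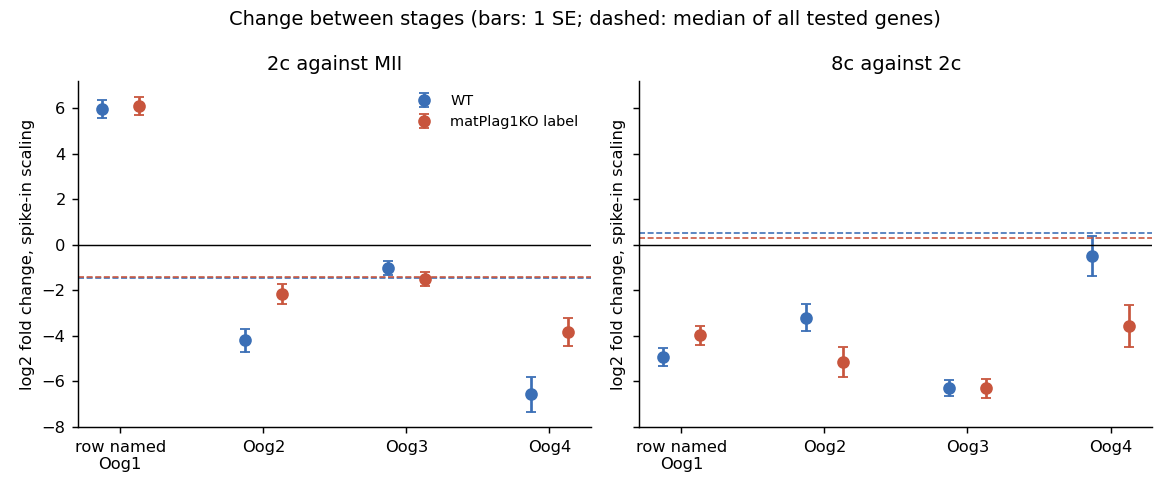
Log2 fold changes between stages with spike-in scaling (points, bars of 1 SE), in WT (blue) and matPlag1KO (red), with dashed lines at the median of all tested genes. From MII to 2c Oog3 lies near the dashed lines at -1.01 and -1.51, Oog2 and Oog4 lie below them and the row named Oog1 lies above 0. From 2c to 8c Oog3 falls to -6.29 and -6.31.

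The genotypes were compared at each stage with TMM scaling. In MII oocytes 0.781% of genes were called, and no member was among them in edgeR (adjusted p from 0.583 to 1, unadjusted p from 0.0778 to 0.677) or in DESeq2. The log2 fold change of matPlag1KO against WT was 0.10 ± 0.24 for Oog3, -0.20 ± 0.36 for the row named Oog1, -0.39 ± 0.30 for Oog2 and -0.75 ± 0.42 for Oog4 (SE). Every oocyte of either genotype had counts for all 4 members. The 9 oocyte markers summed to 6107 to 35402 CPM in WT oocytes (median 8380) and 5489 to 32761 CPM in matPlag1KO oocytes (median 25486). All 9 had higher fitted levels in matPlag1KO oocytes (median log2 fold change 0.61, against 0.00 over all genes). In edgeR 0 of them were called, with 3 at an unadjusted p under 0.05. The part of these markers in the member values was not tested. With the well as a replicate block, which pairs the 14 wells that held a WT oocyte in 1 plate and a matPlag1KO oocyte in the other, 832 of 13070 genes were called, against 46 in the fit of the oocytes alone without block and plate, and Oog4 stood at -0.10 ± 0.22 (SE, adjusted p = 0.905). No member was called with the block.

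Oog4 differed in opposite directions in the 2 plates. In plate A it had 151 ± 159 CPM in WT (SD, n = 8) and 25.7 ± 18.6 CPM in matPlag1KO oocytes (SD, n = 7), a log2 fold change of -2.42 ± 0.54 (SE, adjusted p = 0.00985 in edgeR). In plate B the means were 23.3 ± 19.7 (SD, n = 8) and 77.7 ± 66.5 CPM (SD, n = 7), a log2 fold change of 1.69 ± 0.56 (SE, adjusted p = 0.0804). Row A of the wells held the WT oocytes of plate A and the matPlag1KO oocytes of plate B, and row B held the others. Oog4 ranged from 17.9 to 533 CPM with a median of 80.7 over the 15 oocytes of row A, and from 2.60 to 60.3 CPM with a median of 21.95 over the 15 of row B. Of the 14 wells with both genotypes, WT was higher in 6 and matPlag1KO in 8. The high and low Oog4 levels thus lay with the rows in both plates, and the ranges of the rows overlapped.

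At 2c 4.92% of genes were called, and among the members Oog2 was higher in the embryos labelled matPlag1KO. In WT its counts ran from 0 to 8 with a median of 2, or 0 to 55.5 CPM with a median of 8.63. In the labelled embryos they ran from 3 to 22 with a median of 11, or 16.3 to 82.7 CPM with a median of 57.1. The groups overlapped through 3 WT embryos, at 17.9, 21.85 and 55.5 CPM, and the other 8 of 11 lay below all labelled ones. The log2 fold change was 1.89 ± 0.44 (SE, adjusted p = 0.00511 in edgeR), and the pooled counts of 118 against 26 gave a ratio of 3.88 with a 95% counting interval of 2.52 to 6.18. The genotype difference at 2c was larger than that at MII by 2.28 ± 0.53 (log2, SE, adjusted p = 0.00642), in an interaction test that called 3.31% of genes.

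Within the plates, Oog2 was higher in each of the 5 labelled embryos than in any of the 4 WT embryos of plate A (29.5 ± 16.1 against 7.81 ± 2.70 CPM, SD), and higher in each of 6 than in any of 7 in plate B (66.0 ± 9.42 against 16.8 ± 18.6 CPM, SD). The log2 fold changes were 1.80 ± 0.81 (SE, adjusted p = 0.539) in plate A, where no gene was called in edgeR (0, with an unadjusted p under 0.05 for 1339 of the 15073 tested), and 1.97 ± 0.54 (SE, adjusted p = 0.0258) in plate B. Most WT 2c embryos were in row C and the labelled ones in row D. The wells D4 and D5 held WT embryos in plate A, with 5.75 and 11.3 CPM of Oog2, and labelled embryos in plate B, with 60 and 69.3 CPM. A block on these wells used the 2 pairs alone and gave 1.75 ± 1.37 (SE, adjusted p = 1). Of the 9 oocyte markers, Bmp15, a growth factor gene of the oocyte, was the 1 called higher at 2c (1.83 ± 0.46 SE, adjusted p = 0.011), and their summed level was 1677 to 6764 CPM in WT and 2495 to 8834 CPM in the labelled embryos. The 2-cell markers summed to 78.1 to 991 CPM in WT and 241 to 1436 CPM in the labelled embryos, and all 5 tested were positive (median log2 fold change 1.48, against 0.12 over all genes). Of these Tdpoz4 was called higher, with 33 counts in WT and 528 in the labelled embryos (3.37 ± 0.67 SE, adjusted p = 0.00142). Of the 528 counts 291 came from 1 embryo, and the medians were 14.15 CPM in WT and 33.8 CPM in the labelled embryos. The part of these markers in the result was not tested.

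**Figure D4:**
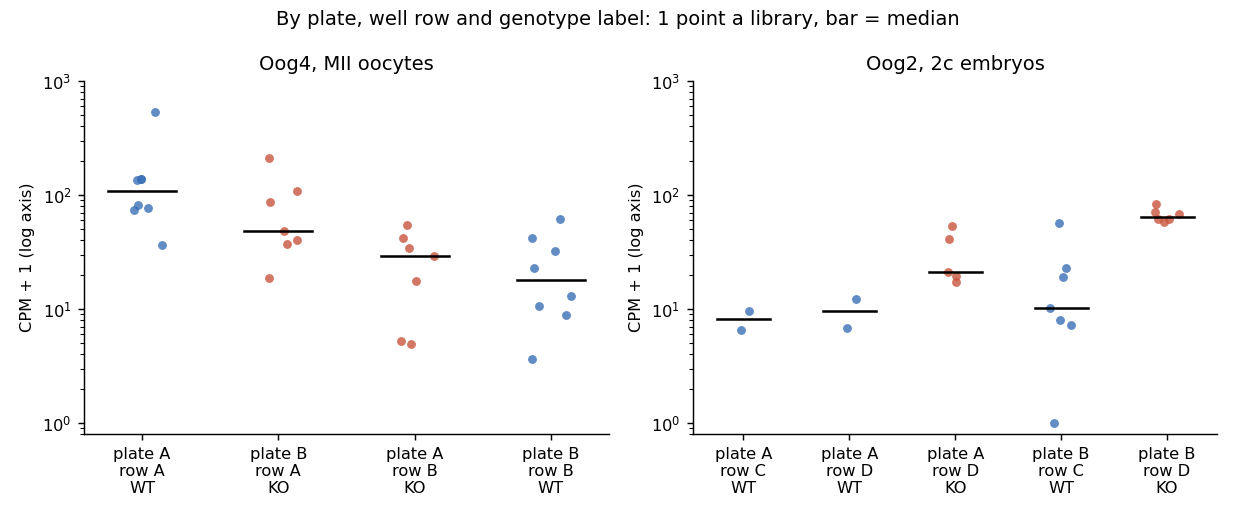
Left, Oog4 in MII oocytes, and right, Oog2 in 2c embryos, as CPM + 1 on a log axis by plate, well row and genotype label (WT blue, KO red), with 1 point a library and a bar at the median. Oog4 medians are 108 and 47.2 CPM in row A (plates A and B) against 27.9 and 17.0 CPM in row B, while the WT embryos of row D in plate A, at 5.75 and 11.3 CPM of Oog2, lie below the KO embryos of row D.

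The other members showed no called difference at 2c. Oog4 had 4 counts in 3 of 11 WT embryos and 27 counts in 9 of 11 labelled embryos, a ratio of 5.77 with a 95% counting interval of 2.01 to 22.7. Of the 27 counts 10 came from 1 embryo, and the interval does not cover the spread between embryos. The log2 fold change of Oog4 was 2.30 ± 0.88 (SE, adjusted p = 0.103 in edgeR), at 0.80 (adjusted p = 0.874) in plate A and 3.61 (adjusted p = 0.0559) in plate B. In wells D4 and D5 the WT and labelled embryos had 11.5 and 10.9 CPM, and 0 and 0 CPM. Oog3 stood at 3222 ± 1449 and 2890 ± 1182 CPM (SD, n = 11 each), a log2 fold change of -0.16 ± 0.28 (SE, adjusted p = 0.803), and the row named Oog1 differed by 0.26 ± 0.36 (SE, adjusted p = 0.727).

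At 8c 1.74% of genes were called, and the row named Oog1 was the member among them. It had 4.53, 51.4 and 194.9 CPM as the lowest, median and highest of 15 WT embryos, and 52.0, 87.7 and 435 CPM in 11 matPlag1KO embryos. The groups overlapped, with 8 WT embryos below all matPlag1KO embryos and 2 matPlag1KO embryos above all WT. The log2 fold change was 1.35 ± 0.35 (SE, adjusted p = 0.0247 in edgeR). It was 1.00 (adjusted p = 0.130) without the matPlag1KO embryo with 435 CPM, 1.52 (adjusted p = 0.362) in plate A alone, 0.97 (adjusted p = 0.423) in plate B alone and 0.73 (adjusted p = 0.616) after the 5 rows inside the span were subtracted, but 1.61 (adjusted p = 0.0403) with BB287469 subtracted in place of Gm16381. Among those rows Gm16381 (1.30 ± 0.38 SE, adjusted p = 0.0487) and Gm1995, a transcribed pseudogene (1.97 ± 0.49 SE, adjusted p = 0.0156), were called higher as well. At 8c the WT embryos took the plate columns 1 to 4 and the matPlag1KO embryos the columns 5 to 8 in both plates, so column and genotype cannot be told apart. Same-well libraries of the 2 plates, of 1 genotype at 8c, were closest to each other in 12 of 12 pairs. The 8c test takes them as independent. The 8 genes listed as markers of the 8-cell stage all had lower fitted levels in matPlag1KO (median log2 fold change -1.34, against 0.00 over all genes). Of these, the keratin genes Krt8 and Krt18 were called lower (both -1.91, adjusted p = 0.0258 and 0.0115). The list is mixed as a marker: from MII to 8c in WT 4 of the 8 were called higher, 2 (Fabp5 and Dppa1) lower and 2 were not called. These markers summed to 236 to 1182 CPM in WT and 112 to 864 CPM in matPlag1KO at 8c, and to 276 to 1061 CPM in WT oocytes. Of the oocyte genes, Nobox was called higher (2.53 ± 0.57 SE, adjusted p = 0.00743) and Zp1, of the zona pellucida, lower (-2.36 ± 0.61 SE, adjusted p = 0.0238). Of the 395 Nobox counts in matPlag1KO, 265 came from 1 embryo, and the medians were 8.61 CPM in matPlag1KO and 2.39 CPM in WT. The part of these genes in the result was not tested. Oog3 differed by 0.07 ± 0.31 (SE, adjusted p = 1). The change of the genotype difference from 2c to 8c, called for 2.3% of genes, was called for no member in edgeR (unadjusted p from 0.0324 to 0.59, 1 of them under 0.05).

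Relatives of the members were taken by sequence, as genes with a transcript that aligned over at least 70% of a member's transcript. This list was set after the files had been seen, and 9 of its 10 genes that are no members are in the count table. From MII to 2c 8 of 9 fell and Pramel6 rose in WT (median log2 fold change -3.37, against -1.46 over all genes), and 7 of 9 fell in matPlag1KO (median -2.49, against -1.42). Over all tested genes 51.3% were lower in WT and 50.3% in matPlag1KO. Gm13084, with 97.99% identity to Oog2, went from 707 ± 467 (SD, n = 16) to 55.7 ± 41.2 CPM (SD, n = 11) in WT, and C87977 from 431 ± 201 to 87.5 ± 56.7 CPM. At 2c edgeR called 0 of the 9 between the genotypes, with 5 at an unadjusted p under 0.05, and DESeq2 called 4. Their median log2 fold change was 0.82, against 0.12 over all genes, and 7 of 9 were positive. Gm13084 was at 1.00 ± 0.42 (SE, adjusted p = 0.152) and C87977 at 1.03 ± 0.37 (SE, adjusted p = 0.0861). Oog2 and Gm13084 are close enough that reads beyond their distinct opening bases could be shared, and the authors' treatment of such reads is not given in the sources used here.

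Gm13103, the closest relative of Oog3 with 87.84% identity, is singled out after its values were seen. Its 261 WT oocyte counts came from 13 of 16 libraries and its 14 matPlag1KO counts from 6 of 14 libraries, means of 42.9 ± 49.5 and 1.59 ± 2.26 CPM (SD), with a log2 fold change of -4.63 ± 0.71 (SE, adjusted p = 6e-06 in edgeR). At 2c the order was the opposite, as it was for Plag1, with 3 counts in 2 of 11 WT embryos and 35 counts in 5 of 11 labelled embryos (2.95 ± 1.06 SE, adjusted p = 0.0806). This 2c difference was not called, and a link to Plag1 was not tested. For Oog3 the differences at these stages were 0.10 and -0.16.

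**Figure D5:**
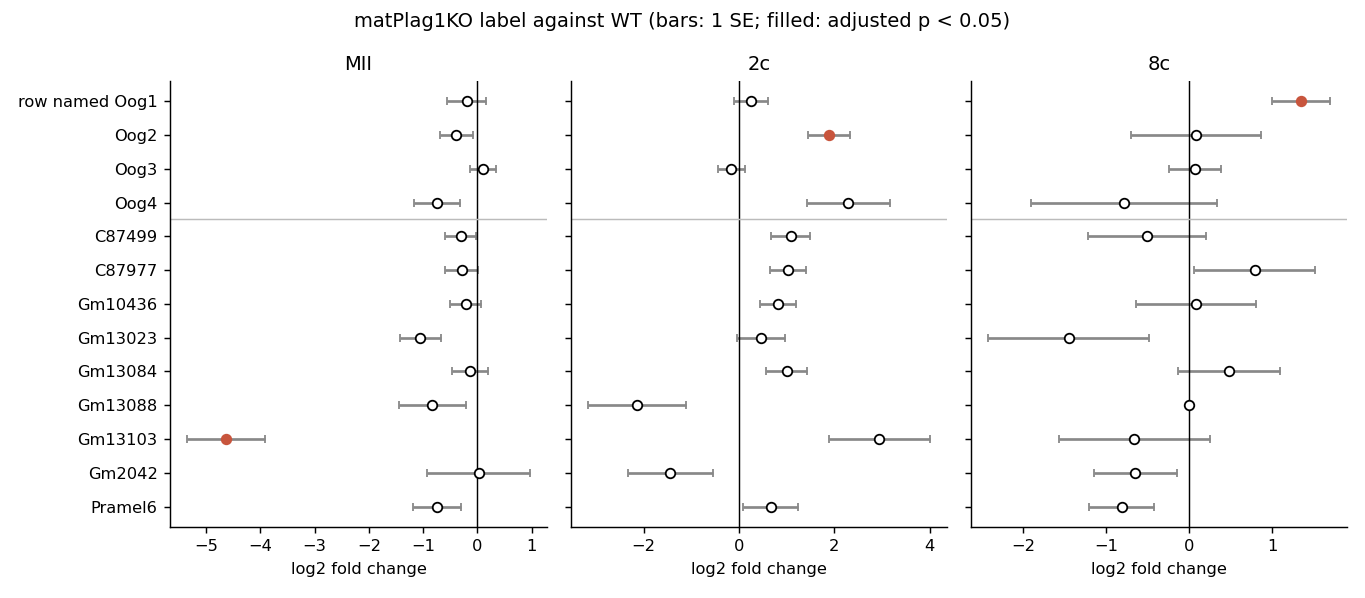
Log2 fold changes of the matPlag1KO label against WT with TMM scaling, at MII, 2c and 8c, for the 4 members (above the line) and 9 relatives (below), with bars of 1 SE and filled points for an adjusted p under 0.05. Filled are Gm13103 at MII (-4.63), Oog2 at 2c (1.89) and the row named Oog1 at 8c (1.35).

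The PRAME genes by symbol, of which 10 of 12 were tested, followed other courses. In WT 6 rose from MII to 2c and Pramef12 and Pramef8 fell (median log2 fold change 2.91, against -1.46 over all genes). Over all tested genes 14.1% were higher and 51.3% lower. Pramef12 went from 256 ± 194 to 91.7 ± 62.9 CPM. At 2c Pramel4 was the 1 called between the genotypes, at 240 ± 121 CPM in WT and 123 ± 60.5 CPM in the labelled embryos (-0.98 ± 0.30 SE, adjusted p = 0.0413).

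Of the 15 tested genes of Ral signalling, 10 fell and Exoc8, of the exocyst, rose from MII to 2c in WT (median -1.81, against -1.46). Over all tested genes 51.3% were lower and 14.1% higher. Ralgds, the gene of the factor bound by Oog1 protein, was named for this role after its values were seen and stood at 13.4 ± 18.1 CPM in WT oocytes and 16.1 ± 18.7 CPM in WT 2c embryos. At 2c Rras was the 1 called between the genotypes in edgeR and DESeq2 called 0. It had 0 counts in WT and 13 counts in 4 of 11 labelled embryos (adjusted p = 0.00886).

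The cullin 2 and elongin list had 5 tested genes, and from MII to 2c in WT Tceb1, Tceb2 and Vhl rose while Rbx1 and Cul2 fell (median 1.23, against -1.46). All 5 rose from 2c to 8c in both genotypes (median 1.46 in WT and 2.82 in matPlag1KO, against 0.53 and 0.30). Over all tested genes 31.9% and 29.1% were higher. Tceb2, the elongin B gene, was the 1 called at 2c, at 419 ± 205 CPM in WT and 163 ± 140 CPM in the labelled embryos (-1.37 ± 0.42 SE, adjusted p = 0.0389). Of the 5 genes 0 were positive at 2c (median -0.77, against 0.12 over all genes), and 4.92% of all tested genes were called.

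Of 8 oocyte transcription factor genes, Nobox, Lhx8, Foxo3, Figla and Sohlh2 fell from MII to 2c in both genotypes (median -3.36 in WT, against -1.46). Over all tested genes 51.3% were lower in WT and 50.3% in matPlag1KO. Figla, whose protein binds E-boxes, went from 12.5 ± 9.77 to 3.42 ± 5.90 CPM and Nobox from 1225 ± 642 to 76.4 ± 42.6 CPM in WT. At 2c edgeR called 0 of the 8 between the genotypes, 1 had an unadjusted p under 0.05 and DESeq2 called 0.

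For each member, the genes with the most similar course were found by Pearson's r of log2(CPM + 1) over the 78 libraries, among 5273 genes with a mean of at least 20 CPM in WT oocytes. The points share stage, plate and depth, so the correlations are a description. Oog3 was closest to Omt2b, Omt2a and Tcl1b3 (r = 0.970, 0.970 and 0.969). Omt2a, named for oocyte maturation, had 4642 ± 1512 CPM in WT oocytes, 8544 ± 2789 at 2c and 47.0 ± 31.9 at 8c. Oog2 was closest to Daw1, a dynein assembly gene, to Gpatch2 and to its relative C87977 (r = 0.926, 0.926 and 0.925). Oog4 was closest to the ubiquitin ligase gene Rnf114, to Tubal3 and to Gpnmb (r = 0.863, 0.852 and 0.850). The row named Oog1 was closest to 2500002B13Rik, Rpia and Prkcq (r = 0.855, 0.840 and 0.839). Prkcq, a protein kinase C gene, had 53.9 ± 45.1 CPM in WT oocytes, 1366 ± 611 at 2c and 281 ± 135 at 8c. Between members, r was 0.870 for Oog2 and Oog3, 0.753 for Oog2 and Oog4, 0.602 for Oog3 and Oog4, and -0.380 to 0.220 for the row named Oog1 with the others.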

How the data were processed

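Single oocytes and embryos were sequenced from transcript 5′ ends (STRT) with molecular identifiers and ERCC spike-ins. The authors aligned reads to mm9 with TopHat, counted them over UCSC gene models with HOMER, and deposited the raw counts (24422 genes, 92 spike-ins, 90 libraries) with no scaling applied. How reads with several places were treated is not given in the sources used here.

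Members and lists were chosen with earlier results of these data known. Libraries with a median CPM under 1 (12 of 90) were left out, and a gene was tested where 5 or more kept libraries reached 1 CPM. One quasi-likelihood model in edgeR 4.0.16 (R 4.3.3) held the means of the 6 groups, and the threshold was a Benjamini-Hochberg adjusted p of 0.05. Genotypes were compared with TMM factors on gene counts and stages with spike-in totals as library sizes. CPM are on TMM library sizes. SE is the log2 fold change over the square root of F. Counting intervals and ratios cover counting error alone. No libraries of a group were copies (lowest chi-square per degree of freedom 3.54). The fit was tested on simulated data.

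The genes named are the members, Plag1, the 3 genes closest to each member, and from each list those called at 2c and up to 4 others by level in WT oocytes, plus genes said to be chosen later. Values of 1 gene under this rule are not reported here. Relatives were found by blastn (BLAST+ 2.17.0) on GENCODE vM1 transcripts, in place of a planned protein comparison. DESeq2 1.42.0 was an alternative, beside those for scaling, filter, libraries, plate and well. Subtraction of rows inside the span of the row named Oog1, and leaving out the highest library, were added after the data were seen. The subtraction takes the counts of those rows, with Gm16381 on the opposite strand, to lie in the row named Oog1, which was not tested. Same-well libraries of the 2 plates were checked for pairing by their deviations from the means of group and plate over 8418 genes. At MII each of 14 pairs, which hold opposite genotypes, had r above 0.1 (lowest 0.148), so the wells were taken as pairs there. At 2c 2 of 8 pairs held opposite genotypes (lowest r 0.0248), and at 8c none of 12 did (r from 0.104 to 0.416). A library was closest to that of its own well in 13 of 14 pairs at MII, 6 of 8 at 2c and 12 of 12 at 8c. The tests without a block take same-well libraries as independent, so their p-values do not allow for this likeness.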

Additional observations from a re-analysis of the deposited data

Results flagged for a closer look

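The genotype difference of Oog2 was not the same at the 2c and MII stages. The matPlag1KO label stood 1.89 (log2, edgeR) above WT at 2c and 0.39 below it at MII (-0.39), and the change between the stages was 2.28 (SE 0.53, adjusted p = 0.00642 in an interaction test). Scaled to spike-in RNA the change was 2.02 (adjusted p = 0.0552), in plate A alone 1.93 (adjusted p = 0.400) and in plate B alone 2.68 (adjusted p = 0.0145).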

How the results depend on the processing

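Of the members' values under the alternatives, 384 kept their side of the threshold, 17 fell short of it and 5 newly passed it. A further 4 turned direction with a call in the main fit or the alternative. The 384 include values that turned direction where neither fit was called, such as Oog4 at MII in plate B. Of the counts of genes called, 70 stayed within 1.5 times and 27 did not. Where no cause is named, the cause was not tested.

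The 8c difference of the row named Oog1 (1.35) lost its call with all 90 libraries (1.21, adjusted p = 0.0617), in plate A (1.52), in plate B (0.97), without the matPlag1KO embryo at 435 CPM (1.00) and less the 5 rows inside its span (0.73). Oog2 at 2c missed the threshold in plate A (1.80), and its change from MII to 2c with spike-in scaling (2.02) and in plate A (1.93). That change for Oog4 passed with another low-count filter (filterByExpr, 3.14, adjusted p = 0.0431), median-ratio scaling (3.35, adjusted p = 0.0357), DESeq2 (3.39, adjusted p = 0.0317) and edgeR's likelihood ratio test (3.02, adjusted p = 0.0478). Oog4 at MII passed in plate A (-2.42).

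Between MII and 2c, TMM scaling turned Oog3 to 0.42 in WT and 0.17 in matPlag1KO and took Oog2 in matPlag1KO to -0.44. Oog3 in WT missed the threshold in each plate alone (-1.23 in plate A, -0.80 in plate B). Missed in 1 plate were Oog2 in matPlag1KO (-1.23 in plate B), Oog2 from 2c to 8c in WT (-1.73 in plate A), Oog4 from 2c to 8c in matPlag1KO (-2.54 in plate A) and the row named Oog1 from MII to 8c in WT (0.84 in plate B). Less the 5 rows, that row turned to -2.01 in WT and -1.75 in matPlag1KO from MII to 8c, and with BB287469 for Gm16381 it stood at 0.43 in WT.

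The well as a replicate block, with plate as a term, called 832 genes at MII, against 46 in the fit of that stage only and 129 in the fit of all groups, and changed no member's call there. At 2c it rests on 2 pairs, with Oog2 at 1.75 (adjusted p = 1) and 0 genes called in edgeR (317 at an unadjusted p under 0.05), against 763 in the fit of that stage only and 812 in the fit of all groups, and at 8c no paired analysis was possible because no well held both genotypes.

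Genes called at MII (129) numbered 44 with filterByExpr, 82 in DESeq2, 463 in plate B and 46 from a fit of that stage only. At 2c (812) there were 285 with spike-in scaling, 0 in plate A in edgeR (1339 at an unadjusted p under 0.05) and 502 in plate B, and at 8c (287) 106 with spike-in scaling, 6 in plate A and 46 in plate B. For the change from MII to 2c (546) there were 312 with spike-in scaling and 39 in plate A, and from 2c to 8c (380) 92 with spike-in scaling, 654 in DESeq2, 0 in plate A in edgeR (1341 at an unadjusted p under 0.05) and 170 in plate B. With filterByExpr, which tests fewer genes, stage calls went from 10800 to 6599 (2c against MII), 7950 to 5227 (8c against 2c) and 11677 to 6626 (8c against MII) in WT, and from 10537 to 6559, 8025 to 5270 and 11441 to 6579 in matPlag1KO. Plate A gave 4026 and 4306 calls for 8c against 2c in WT and matPlag1KO, and plate B 6961 for 2c against MII in WT.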
